A study of Mus musculus with 78 samples.

Results

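Replication-dependent histone genes were followed through time and cytokine treatment in mouse cartilage engineered in culture. They were taken as the rows of the deposited mRNA count table whose name begins with Hist1h, Hist2h, Hist3h or Hist4h, without pseudogenes, and whose counts summed to at least 50 over 38 libraries. This gave 54 genes of 52459 named rows: 6 of the linker histone H1, 13 of H2A, 13 of H2B, 10 of H3 and 12 of H4. The rule used summed counts only, and no comparison between groups. Of the 54 genes, 50 passed the low-count filter of the test. Hist1h2ad, Hist1h2ag, Hist1h2an and Hist1h2bp did not, and are described by their levels alone. Just inside the threshold were Hist1h2ag with 76 summed counts and Hist1h2ad with 82, and just outside it were Hist3h2ba with 15 and Hist1h2al with 5.

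The study exposed cartilage made from murine induced pluripotent stem cells to inflammatory cytokines, signalling proteins that drive joint inflammation. Groups were untreated controls at 0, 4, 12, 24 and 72 h, and cartilage kept for 4, 12, 24 or 72 h with the interleukin IL-1beta at 1 ng/mL, or for the same times with the tumor necrosis factor TNF-alpha at 20 ng/mL, so that every group shares the same cell source and culture. Each of the 13 groups had 3 mRNA libraries, made from total RNA after removal of ribosomal RNA and not by poly(A) selection. The control at 0 h had 2 usable libraries, since its replicate b, whose column reached a correlation of at most 0.189 with any other, was not used. The labels do not say whether replicates were separate cultures, and if they were not, a p-value here covers library-to-library spread alone.

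A replication-dependent histone gene makes the bulk histones that package newly copied DNA, and its mRNA is made mainly in S phase, the phase of DNA synthesis. These mRNAs are unusual in ending in a stem-loop bound by the protein Slbp in place of a poly(A) tail, and they are degraded when DNA synthesis stops. Many copies lie in clusters, and several code for the same or nearly the same protein. Some of them, such as Hist1h1c, Hist1h2bc, Hist2h2be and Hist4h4, are also known to give polyadenylated mRNA in cells that do not divide. H2A, H2B, H3 and H4 form the core of the nucleosome, and H1 binds the DNA between nucleosomes.

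The 38 libraries held 11163263 to 68655350 counts. All 10 chondrocyte markers were above a mean of 1 CPM (counts scaled by TMM to a common library total), summing to 16977 to 157792 CPM per library, and all 8 fibroblast markers were too, summing to 11166 to 42602 CPM. Of other marker lists, 5 of 6 adipocyte, 4 of 8 neural, 3 of 8 leukocyte, 2 of 6 muscle and 1 of 8 pluripotency genes passed 1 CPM. No endothelial gene of 6 and no germ cell gene of 8 did. The 8 libraries of IL-1beta at 4 h and of controls at 0 and 4 h stood apart from the other 30: 3 genes had at least 10 counts in each of the 30 and at most 2 in each of the 8. TNF-alpha at 4 h crosses this line when compared with its control or with IL-1beta, and the part of this in those results was not tested.

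All 54 genes were found in RefSeq (GRCm38.p6, the mm10 build) by their older symbols. On chromosome 13 lie 47 of them, in a group of 18 between positions 21715711 and 22043658 and a group of 29 between 23531044 and 23764412. A further 5 lie on chromosome 3 between 96219885 and 96263317, Hist3h2a lies on chromosome 11, and Hist4h4 lies on chromosome 6. The RefSeq span of Hist3h2a overlaps Trim17, and that of Hist1h2be overlaps a predicted gene. The counting of reads by strand is not given in the sources used here, so these 2 pairs may share reads. The deposited gene length was under 1000 bases for 39 members, near the size of a histone coding sequence with its short ends, and 1000 bases or more for 15, such as Hist1h1d with 7425 bases against a RefSeq span of 776 bases. Such long models can also count reads from longer transcripts of the locus. Near-identical copies cannot be told apart by short reads, and how such reads were counted is not given in the sources used here. Counts of closely similar members are therefore uncertain, and 10 other rows of the same name pattern, among them Hist2h2aa1 and Hist2h2aa2, are listed at 0 counts in all 38 libraries.

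Promoters are shown because most members moved together. A RefSeq window from 250 bases before to 50 bases after the start was found for 49 members, 50 windows in all. The CCAAT box (CCAAT, either strand) was in 42 of the 50 windows (84%), against 37.4% of all 32851 windows of that length. The TATA box (TATAAA, either strand) was in 30 of 50 (60%), against 13.6%. The octamer (ATTTGCAT, either strand), known from H2B promoters as the site of the factor Pou2f1, was in 5 of 12 H2B and 6 of 13 H2A windows and in none of the H1, H3 and H4 windows, against 1.74% of all windows. An E2F site (TTTCCCGC or TTTGGCGC, either strand) was in 1 of 50 windows (2%), against 1.56%. CCAAT was in every H1, H2A, H2B and H3 window, but in 3 of 11 H4 windows. Windows of neighbouring genes can overlap, as those of Hist1h2ah (H2A) and Hist1h2bk (H2B) do, both counted with the octamer. A match can then be counted in both classes, so the H2A and H2B counts are not independent. Hist1h2be has more than 1 of the H2B windows. These are matches of letters and not measured binding sites.

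The 150 bases before the start are printed below for 5 members, 5′ to 3′ on the strand of the gene, with matches to these motifs on either strand in capitals. The first 4 are the core histone genes of largest fall between 0 and 4 h in their class among those with a window, chosen after their values were seen: Hist1h2ah (H2A) fell by -2.61 ± 0.76, Hist1h2bk (H2B) by -2.61 ± 0.37, Hist1h3g (H3) by -2.75 ± 0.30 and Hist1h4b (H4) by -1.93 ± 0.44 on the log2 scale. The last is Hist1h1c, the most abundant member, which did not pass that test. Hist1h2ah rests on few reads, with 11 and 6 counts at 0 h and 5, 2 and 2 at 4 h. Its level was highest in control 0 h replicate a and control 24 h replicate c, at 0.654 and 0.526 CPM. The low-count filter kept it through these libraries, 1 of which is in the comparison that gave its fall. The printed stretch of Hist1h4b holds none of the motifs. Hist1h2ah and Hist1h2bk are transcribed away from each other, and their windows share 123 bases.
Hist1h2ah (chr13:22035644-22035793, minus strand): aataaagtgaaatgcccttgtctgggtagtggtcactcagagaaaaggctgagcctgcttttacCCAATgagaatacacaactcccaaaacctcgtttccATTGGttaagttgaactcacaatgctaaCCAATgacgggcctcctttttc
Hist1h2bk (chr13:22035671-22035820, plus strand): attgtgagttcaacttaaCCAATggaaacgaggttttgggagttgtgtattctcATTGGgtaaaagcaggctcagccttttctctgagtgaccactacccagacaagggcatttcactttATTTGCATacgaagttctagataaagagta
Hist1h3g (chr13:23535268-23535417, plus strand): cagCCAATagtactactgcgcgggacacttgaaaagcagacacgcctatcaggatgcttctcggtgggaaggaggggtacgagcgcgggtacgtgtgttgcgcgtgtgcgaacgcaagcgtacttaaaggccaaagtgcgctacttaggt
Hist1h4b (chr13:23756787-23756936, plus strand): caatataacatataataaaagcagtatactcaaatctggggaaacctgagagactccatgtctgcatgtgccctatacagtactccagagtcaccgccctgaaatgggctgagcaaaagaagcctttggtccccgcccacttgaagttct
Hist1h1c (chr13:23738657-23738806, plus strand): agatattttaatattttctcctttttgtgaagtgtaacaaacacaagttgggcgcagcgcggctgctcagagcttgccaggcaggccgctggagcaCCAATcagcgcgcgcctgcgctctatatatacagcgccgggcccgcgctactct

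Per length, Hist1h1c had the highest level of the 54, with a mean of 132 CPM per kilobase over the 38 libraries (range 95.3 to 178), which was 30.7% of the summed CPM per kilobase of the members. Hist1h2bc, an H2B gene, was next with 46.1 (range 25.0 to 76.6), followed by the H4 gene Hist1h4d with 24.9, the H1 gene Hist1h1e with 19.4 and the H4 gene Hist1h4h with 17.97. From Hist1h2bc to Hist1h4h the ranges over libraries overlapped between neighbours in this order. The H1 class held 39.9% of the summed level per kilobase, H4 24.5%, H2B 18.4%, H2A 9.43% and H3 7.71%. This order and these shares depend on the deposited lengths, which exceed the RefSeq span for many long models. Hist1h1d, with a mean of 31.7 CPM, had 4.27 CPM per kilobase over its 7425 bases. Hist1h1c was counted over 1560 bases against a RefSeq span of 725. The leading H2A and H3 genes were Hist2h2ac with 14.5 CPM per kilobase and Hist1h3e with 7.95. Of the 54, 14 had a mean under 1 CPM, and 6 had a mean of 10 CPM or more.

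Of the 17 comparisons, the one that called most histone genes was between 0 and 4 h in untreated cartilage. Of the 50 tested members 39 fell and 0 rose (edgeR quasi-likelihood test, adjusted p under 0.05), where 10.2% of all 18857 genes tested fell, 10.2% rose and 20.4% were called either way. In bulk tissue fewer cells in S phase and less histone mRNA per cell cannot be told apart. The median log2 change of the 50 was -1.43, against -0.01 over all genes. DESeq2 called 31, and 41 had an unadjusted edgeR p under 0.05. The summed level of all 54 was 575 and 733 CPM at 0 h and 469.8, 466 and 374 CPM at 4 h, so the groups did not overlap, and the mean at 4 h was 0.668 of that at 0 h. Without Hist1h1c, whose own level did not follow, that ratio was 0.496. The count rests on 2 libraries at 0 h: it was 39 without replicate a and 16 without replicate c, the library with the higher histone level, and the lone remaining library is then assumed to vary like the other groups.

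**Figure D1:**
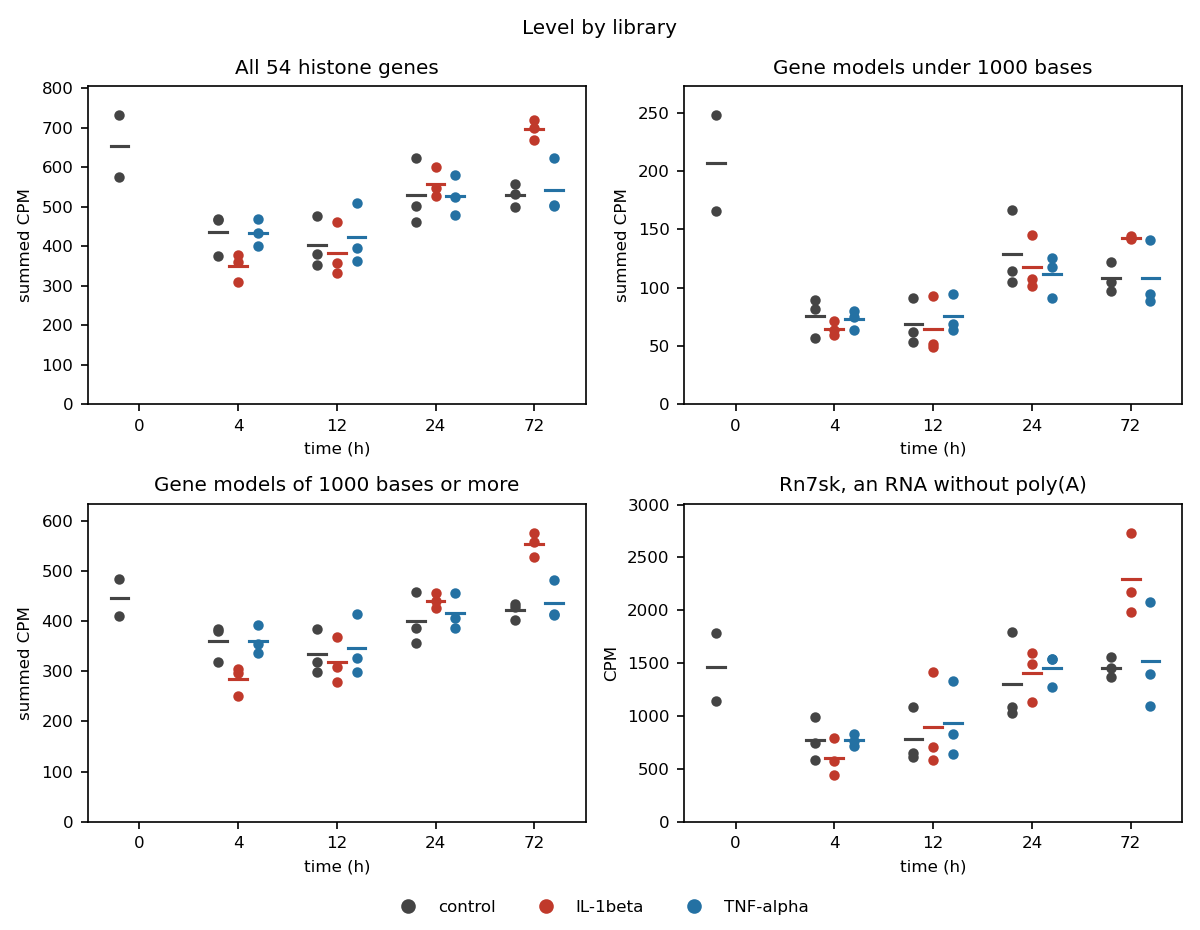
Summed level (CPM, y axis) by time (h, x axis, evenly spaced) in each of the 38 libraries (points) with group means (bars), for all 54 histone genes, for the 39 with gene models under 1000 bases, for the 15 with longer models, and for Rn7sk. The histone sum falls from 575 and 733 CPM at 0 h to 374 to 469.8 CPM at 4 h in controls, is higher again at 24 and 72 h, and is highest after 72 h of IL-1beta among the treated groups. Rn7sk in controls is at 1139 and 1790.1 CPM at 0 h and 584 to 993 CPM at 4 h.

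Each class had members that fell. The fall was called for 10 of 12 H2B, 9 of 10 H3, 11 of 12 H4, 6 of 10 H2A and 3 of 6 H1 genes, with class medians of -1.67, -1.57, -1.48, -1.33 and -0.59 on the log2 scale. The summed level at 4 h was 0.353 of that at 0 h for H4, 0.374 for H3, 0.499 for H2A and 0.630 for H2B, with no overlap between the groups. For H1, whose sum is mostly Hist1h1c, the ratio was 0.935 and the groups overlapped. The H2B gene Hist1h2bk had 4.34 and 6.60 CPM at 0 h and 0.855, 1.06 and 0.773 CPM at 4 h. Each 4 h library was below each 0 h library, and the log2 change was -2.61 ± 0.37 (SE, edgeR adjusted p = 4.32e-06). The H3 gene Hist1h3g had 2.85 and 5.24 CPM at 0 h and 0.813, 0.656 and 0.247 CPM at 4 h. Its groups were likewise apart, with a log2 change of -2.75 ± 0.30 (edgeR adjusted p = 6.41e-08). Hist1h3g has a mean under 1 CPM over all libraries and was chosen for its promoter after its values were seen. Another H3 gene, Hist1h3b, had 4.996 and 4.56 CPM at 0 h against 1.52, 1.49 and 0.402 CPM at 4 h. This was a log2 change of -2.04 ± 0.34 (edgeR adjusted p = 4.35e-05), again with no overlap.

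Among the more abundant H4 genes, Hist1h4d had 49.4 and 70.3 CPM at 0 h and 29.0, 21.8 and 12.9 CPM at 4 h. Every 4 h library was lower, by -1.48 ± 0.32 on the log2 scale (edgeR adjusted p = 0.000907). Hist1h4c, at 16.1 and 26.8 CPM, went to 8.13, 7.65 and 5.47 CPM, with groups apart and a log2 change of -1.58 ± 0.30 (edgeR adjusted p = 0.000252). The H2B genes Hist1h2bm and Hist1h2bh were the other members of largest fall above 1 CPM, with log2 changes of -2.01 ± 0.39 and -2.00 ± 0.34. Hist4h4, an H4 gene that lies alone on chromosome 6, fell by -1.38 ± 0.25 (edgeR adjusted p = 0.000132). In all, 42 of the 50 members had every 4 h library below every 0 h library, as did 25.3% of all genes tested.

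The members that did not pass the test between 0 and 4 h were 11. Hist1h1c had 192 and 196 CPM at 0 h and 213, 220.5 and 192 CPM at 4 h, with overlapping groups (log2 change 0.10 ± 0.08, edgeR adjusted p = 0.428). Hist1h2bc had 50.7 and 66.7 CPM at 0 h and 52.1, 53.5 and 44.5 CPM at 4 h (log2 change -0.23 ± 0.17, edgeR adjusted p = 0.398). These 2 are the most abundant members, and both are known to give polyadenylated mRNA outside S phase. Hist3h2a, Hist2h2be, Hist2h2ab, Hist2h3c2 and Hist1h4i had log2 changes between -0.23 and 0.35. Hist1h1e, Hist1h1t, Hist1h2ae and Hist1h2af had log2 changes between -0.84 and -0.26. In the group of 5 genes on chromosome 3 the median was 0.10 and 2 fell, Hist2h2ac and Hist2h4, while in the 2 groups on chromosome 13 the medians were -1.59 (14 of 15 tested fell) and -1.48 (22 of 28). The difference between these gene groups was not tested.

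Genes of other roles moved in the same comparison. Of 43 genes of S phase and DNA replication 15 fell and 0 rose, with a median log2 change of -0.31. Among them were Rrm2, a subunit of the enzyme that makes deoxynucleotides (-0.91 ± 0.11), Uhrf1, which helps copy DNA methylation (-0.995 ± 0.17), and Mcm2, a subunit of the replicative helicase (-0.40 ± 0.09). Of 30 mitosis genes 16 fell and 0 rose (median -0.46), among them the spindle motor Kif11 (-0.74 ± 0.14) and the topoisomerase Top2a (-0.69 ± 0.14). Of 11 genes listed as replication-independent histone variants 6 fell and 1 rose. H3f3a, which codes for the variant H3.3, fell by -0.98 ± 0.14, and H1f0, the linker histone of resting cells, rose by 0.40 ± 0.06.

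Of 6 other RNAs without poly(A), 3 fell and 0 rose, with a median of -0.81: the small Cajal body RNAs Scarna13 (-2.02 ± 0.31) and Scarna2 (-1.23 ± 0.25), and Rn7sk (-0.92 ± 0.31, edgeR adjusted p = 0.0333), a small nuclear RNA that holds back transcription elongation. Rn7sk had 1139 and 1790.1 CPM at 0 h and 993, 743 and 584 CPM at 4 h. All 4 h libraries were below both 0 h libraries, as for the histone sum. The part of library composition in the histone result was not tested. By gene length, the median log2 change was -0.15 over the 582 other genes of the length class that holds most coding-size members. Over the 24 members in it the median was -1.63. A correction for gene length, chosen after seeing the data, left 39 members called. The part of gene length in the histone result was not tested. Length alone defined these classes, and RNAs without poly(A) were not set apart in them. The 20 genes of histone mRNA transcription and 3' processing split, with 3 higher and 2 lower. Npat, the coactivator of histone genes, rose by 0.36 ± 0.09, and Slbp had a log2 change of -0.06 ± 0.09 (edgeR adjusted p = 0.684).

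**Figure D2:**
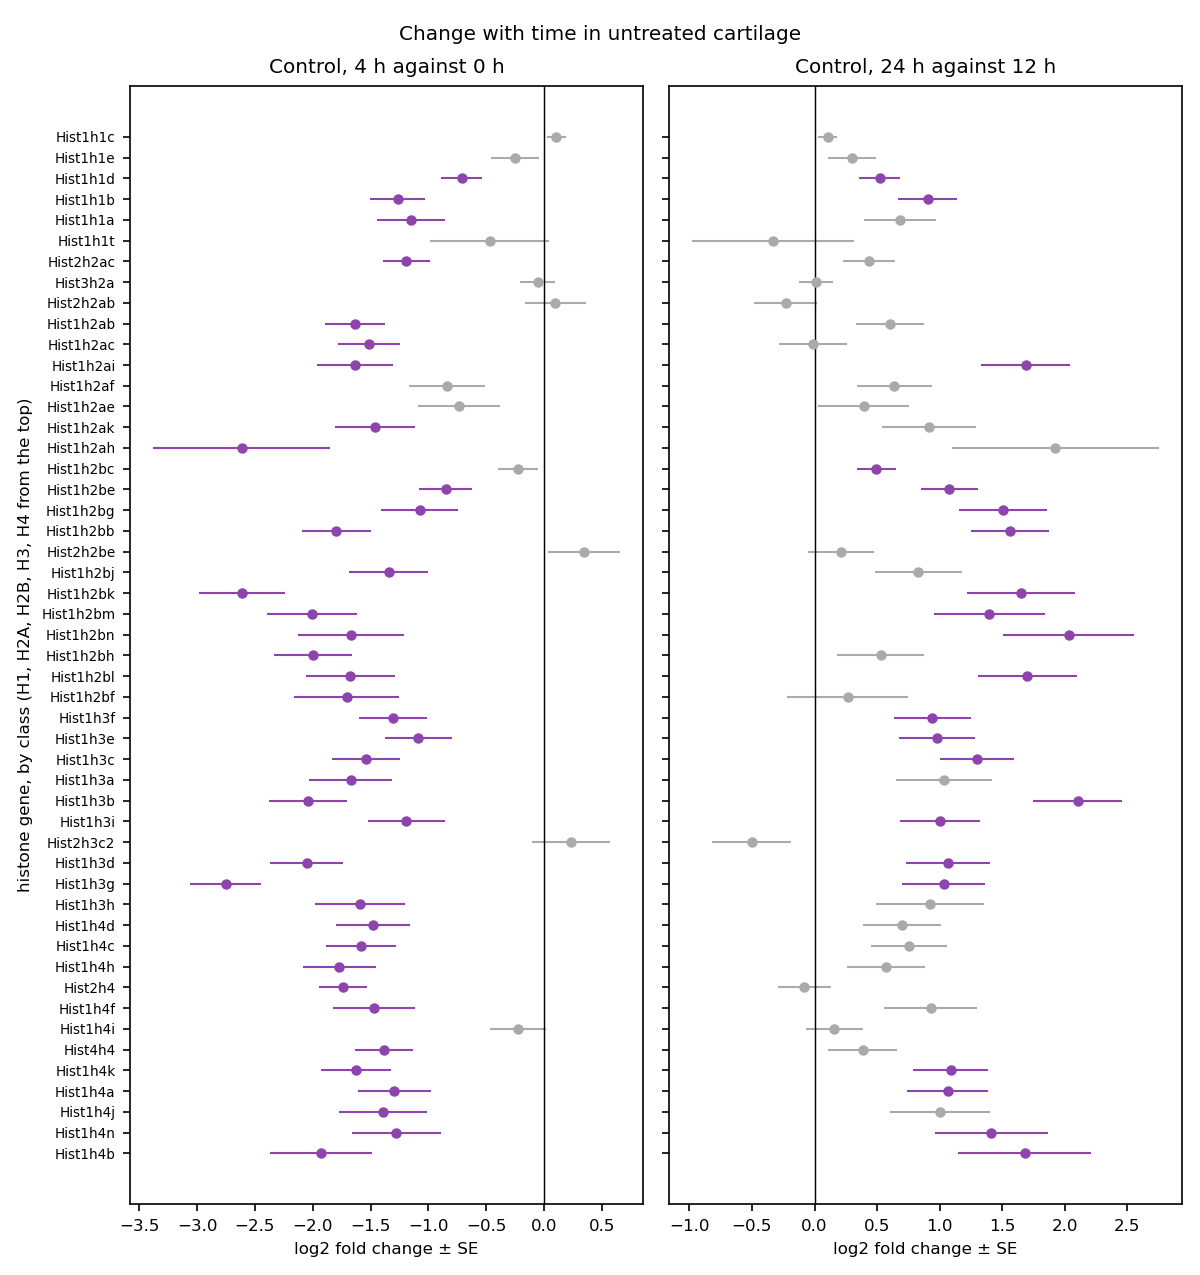
Log2 fold change with its standard error (x axis) of each of the 50 tested histone genes (y axis, by class), for control at 4 h against 0 h (left) and control at 24 h against 12 h (right). Purple points passed the test and grey points did not. On the left 39 genes are lower, down to -2.75, and on the right 22 are higher, up to 2.10.

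Between 12 and 24 h histone genes rose again in untreated cartilage. Of the 50 tested, 22 rose and 0 fell (edgeR), where 10.2% of all genes rose and 11.5% fell, with a median log2 change of 0.91 against 0.01 over all genes. Of the 12 H2B genes 8 rose, of the 10 H3 genes 7, of the 12 H4 genes 4, of the 6 H1 genes 2 and of the 10 H2A genes 1. Of the 22 genes that rose, 21 had also fallen from 0 to 4 h (95.5% of the risers and 53.8% of those that fell), and the remaining one was Hist1h2bc. This share is to be read beside the 78% of all 50 tested members that fell from 0 to 4 h. The comparisons share no libraries. The summed level was 352, 380.4 and 476 CPM at 12 h and 501, 461 and 625 CPM at 24 h, a ratio of means of 1.31 with overlapping groups.

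Hist1h3b had 0.717, 0.723 and 1.52 CPM at 12 h and 4.14, 4.21 and 4.21 CPM at 24 h. The 24 h libraries lay close together and all above those at 12 h, by 2.10 ± 0.35 on the log2 scale (edgeR adjusted p = 5.71e-05). Hist1h2bk had 0.430, 0.603 and 1.16 CPM at 12 h and 2.10, 1.84 and 2.79 CPM at 24 h (1.65 ± 0.43, edgeR adjusted p = 0.00521). The H2A gene Hist1h2ai had 0.526, 0.543 and 0.975 CPM against 1.83, 1.95 and 2.74 CPM (1.69 ± 0.36, edgeR adjusted p = 0.000831). In both the groups were apart. The H2B gene Hist1h2bn, at 0.669, 0.422 and 0.183 CPM, was at 1.21, 2.11 and 2.16 CPM (2.03 ± 0.53, edgeR adjusted p = 0.00516). All 4 calls held when any 1 library was left out.

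Dividing-cell genes rose too: 11 of 43 S phase genes and 10 of 30 mitosis genes, with none lower in either list. Ccne2, a cyclin of the entry into S phase, rose by 0.78 ± 0.13 and Rrm2 by 0.62 ± 0.11. Bub1, a kinase of the spindle checkpoint, rose by 1.05 ± 0.22. Of the 6 RNAs without poly(A) none passed, with a median of 0.47, and Rn7sk had 613, 648 and 1091 CPM at 12 h and 1084, 1033 and 1796 CPM at 24 h (0.73 ± 0.29, edgeR adjusted p = 0.0622). Replicate c was the highest library of both groups for Rn7sk and for the histone sum. The part of library composition in this rise was not tested. The number of histone genes called was 10 without control 12 h replicate a and 9 without control 24 h replicate c, and it was 11 with all 39 libraries.

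At 72 h the histone level of untreated cartilage, in CPM, was still above that at 12 h. Of the 50 members 17 rose and 0 fell (edgeR), where 18.7% of all genes rose and 37.1% were called either way, and the 12 h libraries are those of the comparison above. The summed level at 72 h was 499, 557 and 532 CPM, above every 12 h library. Hist1h2ai had 1.71, 2.96 and 1.67 CPM at 72 h (1.67 ± 0.36 against 12 h, edgeR adjusted p = 0.000361), and the H2B gene Hist1h2bg had 5.43, 6.07 and 4.52 CPM against 2.29, 1.33 and 2.38 CPM at 12 h (1.41 ± 0.35, edgeR adjusted p = 0.00166). The H4 gene Hist1h4n rose by 1.66 ± 0.44 and Hist1h2bn by 1.59 ± 0.55, the latter a call lost without control 12 h replicate b or c or control 72 h replicate b. No H1 gene passed. S phase genes did not move one way here, with 7 higher and 9 lower of 43, and of 30 mitosis genes 1 was higher and 1 lower. Rn7sk rose by 0.89 ± 0.29 (edgeR adjusted p = 0.0130), and 2 other RNAs without poly(A) of 6 also rose. The part of library composition in the histone result was not tested here either. The count was 8 without control 12 h replicate a, 10 without control 12 h replicate b and 10 without control 72 h replicate b.

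**Figure D3:**
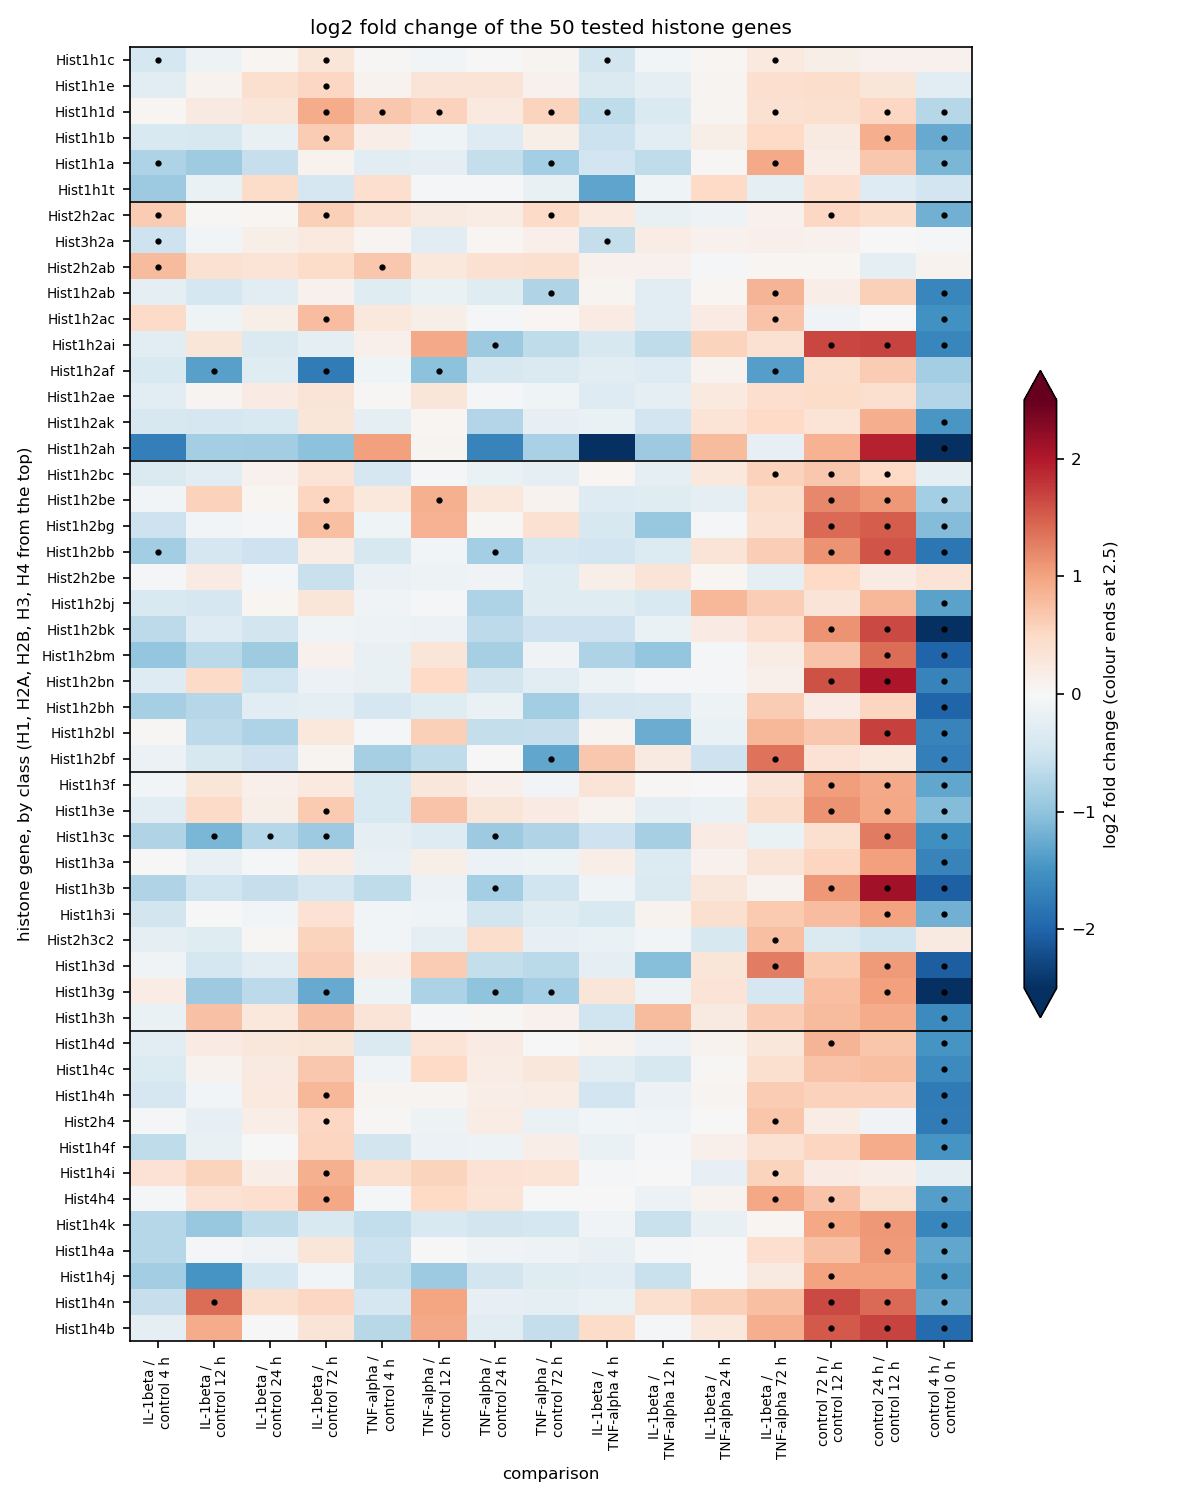
Log2 fold change (colour, red higher and blue lower) of the 50 tested histone genes (rows, by class and mean level) in the 15 comparisons between 2 groups (columns). Dots mark genes that passed the test. The right column, control at 4 h against 0 h, holds 39 dots, all lower, and the 2 columns beside it hold 22 and 17, all higher, while the columns with a cytokine hold 0 to 16.

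Each cytokine comparison called fewer histone genes than these changes with time did. At 4, 12 and 24 h of IL-1beta 6, 3 and 1 members of 50 were called against the control of the same time (edgeR), where 32.7%, 29.6% and 32.6% of all genes were. At 4 h Hist1h1c fell: the controls had 213, 220.5 and 192 CPM and IL-1beta 149, 162 and 153 CPM. The groups did not overlap, and the log2 change was -0.43 ± 0.07 (edgeR adjusted p = 1.92e-05). The H2A gene Hist3h2a fell by -0.53 ± 0.14, and Hist1h2bb (H2B) and Hist1h1a (H1) by -0.87 ± 0.31 and -0.77 ± 0.30. The H2A genes Hist2h2ab and Hist2h2ac, neighbours on chromosome 3, rose. Hist2h2ab had 2.29, 2.08 and 2.91 CPM in controls and 5.68, 3.34 and 3.92 CPM with IL-1beta (0.78 ± 0.20, edgeR adjusted p = 0.00280), and Hist2h2ac had 4.92, 5.17 and 5.996 CPM against 10.04, 7.11 and 8.07 CPM (0.63 ± 0.19, edgeR adjusted p = 0.00856).

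Of these 6 calls, those of Hist1h1c and Hist2h2ab held when any 1 library was left out. Hist2h2ac was lost without IL-1beta 4 h replicate a, Hist3h2a without IL-1beta 4 h replicate b, Hist1h2bb without control 4 h replicate a or b or IL-1beta 4 h replicate a, and Hist1h1a without any of these or IL-1beta 4 h replicate b. The number called was 12 without control 4 h replicate c and 3 without IL-1beta 4 h replicate a. The S phase list had 3 genes higher and 14 lower of 43, with Mcm6 at -0.63 ± 0.07, and the mitosis list 0 higher and 2 lower of 30. Of all genes 15.5% were higher and 17.2% lower. Rn7sk had a log2 change of -0.36 ± 0.28 (edgeR adjusted p = 0.355).

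At 12 h of IL-1beta the H2A gene Hist1h2af fell, from 1.29, 1.21 and 1.097 CPM in controls to 0.721, 0.375 and 0.362 CPM (-1.35 ± 0.41, edgeR adjusted p = 0.0110). The groups were apart. The H3 gene Hist1h3c fell by -1.14 ± 0.41 and Hist1h4n rose by 1.39 ± 0.48. Each of these 3 calls was lost without some library: Hist1h2af was lost without IL-1beta 12 h replicate b or c, Hist1h3c without either of these or control replicate b or c, and Hist1h4n without IL-1beta replicate a or c or control replicate a or c. The count was 1 without IL-1beta 12 h replicate c. At 24 h Hist1h3c alone was called (-0.72 ± 0.27, edgeR adjusted p = 0.0356), with overlapping groups, and its change was -0.36 and not called without control 24 h replicate c. The count at 24 h was then 3, and it was 4 without IL-1beta 24 h replicate b and 0 without replicate a or c of IL-1beta. Over the same times the S phase list had 18 and then 13 genes lower of 43, with 3 and 2 higher, and the mitosis list 15 and then 12 lower of 30. Of all genes 15% and then 15.6% were lower, and 14.5% and 17% higher.

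At 72 h of IL-1beta 13 histone genes rose and 3 fell (edgeR), where 19.3% of all genes rose and 19.7% fell, so the share that rose was near that of all genes. The summed level was 499, 557 and 532 CPM in controls and 720.0, 699 and 670.3 CPM with IL-1beta, with no overlap and a ratio of means of 1.32. The rise touched 4 of 6 H1 and 4 of 12 H4 genes, 2 of 10 H2A, 2 of 12 H2B and 1 of 10 H3 genes. It was called for 7 of the 15 long gene models and 6 of the 35 tested coding-size models, a difference that was not tested. The count was 8 without control 72 h replicate a, 10 without control 72 h replicate c, 9 without IL-1beta 72 h replicate c, and 8 with all 39 libraries.

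The H1 gene Hist1h1d had 24.8, 29.0 and 30.1 CPM in controls and 58.7, 51.1 and 51.0 CPM after 72 h of IL-1beta. All treated libraries were higher, by 0.94 ± 0.16 (edgeR adjusted p = 7.99e-06). Hist4h4 had 4.84, 4.00 and 4.40 CPM against 8.49, 8.55 and 8.70 CPM (0.96 ± 0.23, edgeR adjusted p = 0.00101), and Hist1h4i, also H4, had 4.70, 3.62 and 3.40 CPM against 7.77, 6.01 and 8.06 CPM (0.89 ± 0.20, edgeR adjusted p = 0.000605). The groups of both were apart. Hist1h4h rose by 0.83 ± 0.28, a call lost without control 72 h replicate a or IL-1beta 72 h replicate b. Hist1h1c, at 209, 215 and 224 CPM in controls, was at 277, 273 and 250.04 CPM (0.30 ± 0.07, edgeR adjusted p = 0.00112).

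The 3 members that fell at 72 h were Hist1h2af, Hist1h3g and Hist1h3c. Hist1h2af had 1.27, 2.35 and 1.24 CPM in controls and 0.602, 0.324 and 0.557 CPM with IL-1beta. The groups were apart, by -1.74 ± 0.35 (edgeR adjusted p = 0.000103), and the call held when any 1 library was left out. Hist1h3g had 0.978, 1.51 and 1.30 CPM against 0.602, 0.693 and 0.3001 CPM (-1.26 ± 0.36, edgeR adjusted p = 0.00431), a call lost without IL-1beta 72 h replicate c. Hist1h3c had 2.01, 2.96 and 2.29 CPM against 1.39, 1.43 and 1.07 CPM (-0.91 ± 0.33, edgeR adjusted p = 0.0268), a call lost without control 72 h replicate b or IL-1beta 72 h replicate c.

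In the same comparison genes of dividing cells fell, where 19.7% of all genes fell and 19.3% rose. Of 43 S phase genes 20 fell and 1 rose, with E2f8, a repressor of the E2F family, at -3.13 ± 0.28 and Mcm6 at -1.05 ± 0.07. Of 30 mitosis genes 26 fell and 0 rose, with a median of -1.09 and Kif11 at -1.39 ± 0.15. Of 11 genes listed as replication-independent variants 3 rose and 3 fell. Those that fell were Cenpa, the centromere H3 (-1.02 ± 0.21), H2afx (-0.59 ± 0.14) and H1f0 (-0.26 ± 0.05). Whether each gene of this list is expressed outside S phase was not tested. Of 6 RNAs without poly(A), Rmrp rose (0.97 ± 0.25, edgeR adjusted p = 0.00169), and Rn7sk had 1452, 1554 and 1366 CPM in controls and 1980.3, 2171 and 2733 CPM with IL-1beta (0.66 ± 0.28, edgeR adjusted p = 0.0670). All 3 IL-1beta libraries were above the controls for Rn7sk as for the histone sum. The part of this in the histone result was not tested.

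**Figure D4:**
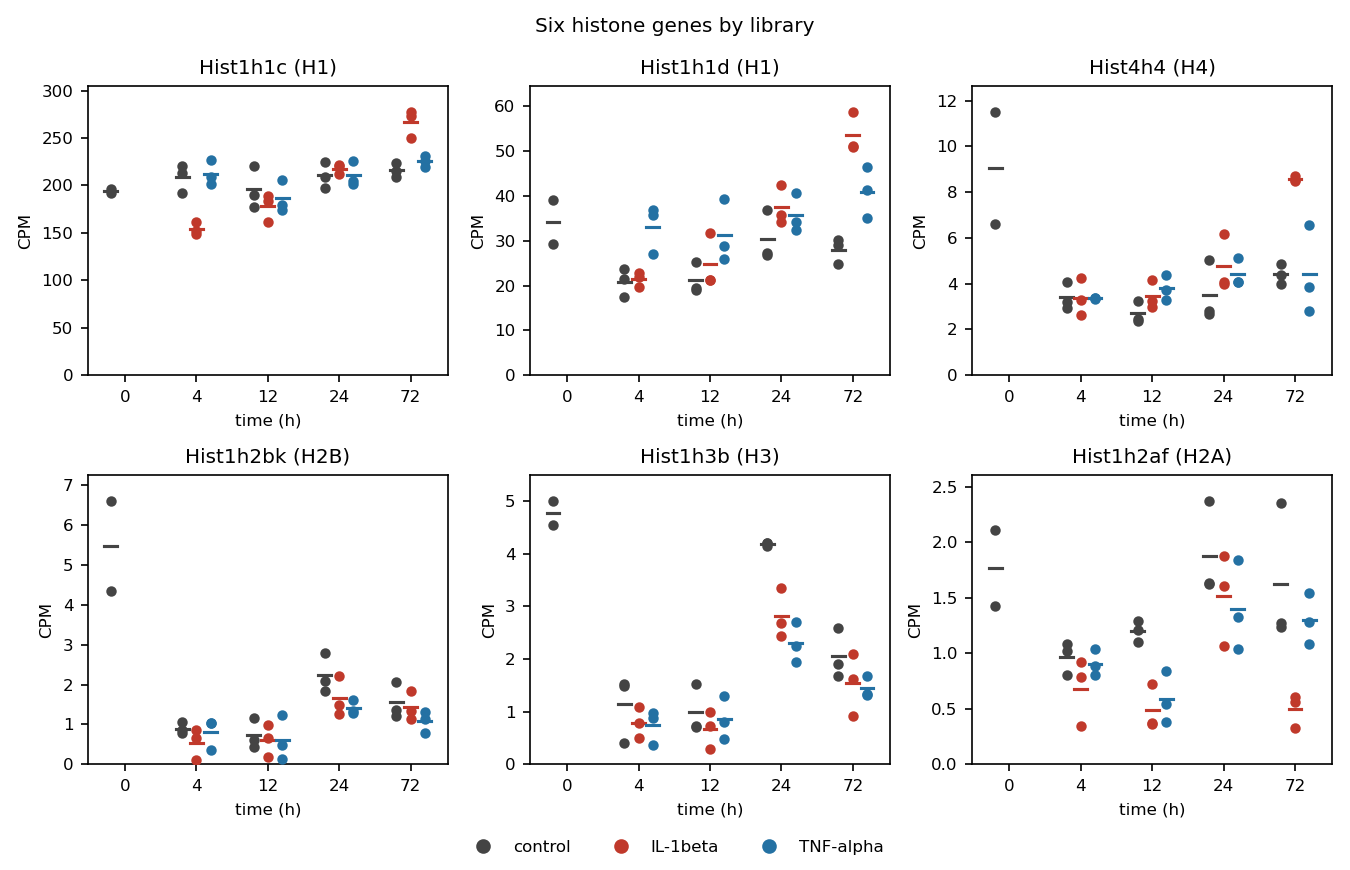
Level (CPM, y axis, each from 0) by time (h, x axis, evenly spaced) of 6 histone genes in each of the 38 libraries (points) with group means (bars). Hist1h2bk and Hist1h3b are highest at 0 h and rise again at 24 h, Hist1h1c stays between 149 and 277 CPM, Hist1h1d and Hist4h4 are highest with IL-1beta at 72 h but for 1 library of Hist4h4 at 0 h, and Hist1h2af is low with IL-1beta at 12 and 72 h.

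TNF-alpha called 2, 3, 5 and 6 members at 4, 12, 24 and 72 h (edgeR), where 21.5%, 28.4%, 25% and 36% of all genes were called. Hist1h1d rose at 3 of the 4 times. At 4 h it had 21.4, 23.7 and 17.5 CPM in controls and 36.8, 26.9 and 35.7 CPM with TNF-alpha (0.67 ± 0.16, edgeR adjusted p = 0.00254). At 12 h it had 18.9, 19.4 and 25.2 CPM against 28.9, 25.9 and 39.3 CPM (0.57 ± 0.17, edgeR adjusted p = 0.00828), and this was 0.38 and lost its call without TNF-alpha 12 h replicate c. At 72 h it had 46.4, 35.2 and 41.2 CPM with TNF-alpha, above the controls (0.55 ± 0.16, edgeR adjusted p = 0.00591). In each the groups did not overlap. The other gene called at 4 h was Hist2h2ab (0.68 ± 0.22), and it was lost, leaving 1 call, without control 4 h replicate a or b or TNF-alpha 4 h replicate b.

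At 12 h of TNF-alpha the H2B gene Hist1h2be rose, from 2.34, 2.29 and 2.74 CPM to 3.94, 4.59 and 5.04 CPM (0.88 ± 0.24, edgeR adjusted p = 0.00436), with groups apart and a call that held without any 1 library. Hist1h2af fell by -1.03 ± 0.37, a call lost on leaving out any of 5 of the 6 libraries compared. The count at 12 h was 6 without control 12 h replicate c. At 24 h 5 members fell and 0 rose: Hist1h3g (-1.003 ± 0.31), Hist1h3c (-0.91 ± 0.27), Hist1h2ai (-0.91 ± 0.30), Hist1h2bb (-0.86 ± 0.28) and Hist1h3b (-0.85 ± 0.29), where 11.9% of all genes fell. Hist1h3b had 4.14, 4.21 and 4.21 CPM in controls and 1.95, 2.70 and 2.26 CPM with TNF-alpha. The 5 were 10% of the 50 tested members, near the share of all genes that fell. All 5 had risen in the controls from 12 to 24 h, as had 22 of the 50 members. That comparison shares the 24 h controls. No member was called without control 24 h replicate c or without TNF-alpha 24 h replicate a.

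At 72 h of TNF-alpha Hist1h1d and Hist2h2ac (0.49 ± 0.18) rose, and Hist1h1a (-0.85 ± 0.30), Hist1h2ab (-0.75 ± 0.28), Hist1h2bf (-1.30 ± 0.50) and Hist1h3g (-0.84 ± 0.32) fell. The summed level was 622, 506 and 502 CPM, overlapping that of controls. Hist2h2ac was at 0.26 without TNF-alpha 72 h replicate a, and Hist1h1a at -0.52 without control 72 h replicate b, and neither then passed. The count was 3 without control 72 h replicate b, 2 without control 72 h replicate c and 3 without TNF-alpha 72 h replicate b. The S phase list had 2 genes higher and 9 lower of 43, and the mitosis list 8 lower of 30, where 17.8% of all genes were higher and 18.3% lower.

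The 2 cytokines were also compared with each other. At 4 h 3 members were lower with IL-1beta and 0 higher (edgeR), where 6.66% of all genes were lower and 5.71% higher: Hist1h1c (-0.46 ± 0.07, edgeR adjusted p = 3.07e-05), Hist1h1d (-0.63 ± 0.17) and Hist3h2a (-0.60 ± 0.15). The count was 1 without TNF-alpha 4 h replicate a. At 12 and 24 h 0 members were called by edgeR or DESeq2, where edgeR called 10.6% and 20.1% of all genes (4.7% higher and 5.88% lower at 12 h, 9.31% higher and 10.8% lower at 24 h), and 4 and 1 members had an unadjusted edgeR p under 0.05. The counts were 2 without IL-1beta 12 h replicate a and 1 without IL-1beta 24 h replicate c. At 72 h 12 members were higher with IL-1beta and 1 lower, where 19.4% of all genes were higher, 20.4% lower and 39.8% called either way. Hist4h4 had 8.49, 8.55 and 8.70 CPM with IL-1beta and 6.58, 3.84 and 2.79 CPM with TNF-alpha (0.97 ± 0.22, edgeR adjusted p = 0.000569), and Hist1h2bc had 88.5, 85.0 and 85.6 CPM against 65.2, 54.4 and 54.04 CPM (0.58 ± 0.15, edgeR adjusted p = 0.00226). Hist1h2af was lower with IL-1beta (-1.38 ± 0.35, edgeR adjusted p = 0.00143). The count at 72 h was 8 without TNF-alpha 72 h replicate b and 8 with all 39 libraries. The doses of the cytokines differ, 1 ng/mL and 20 ng/mL.

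**Figure D5:**
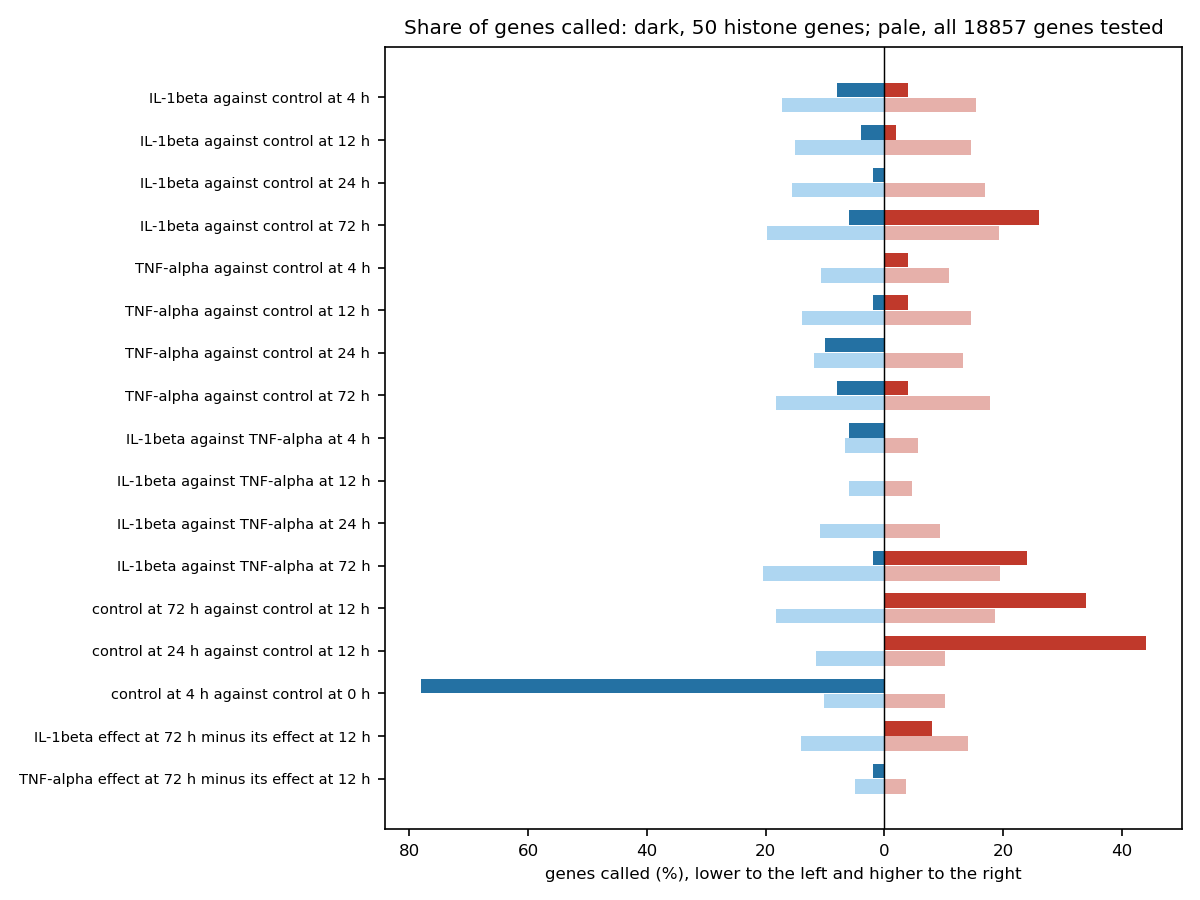
Share of genes called lower (blue, left of 0) and higher (red, right of 0), in percent (x axis), for the 50 tested histone genes (dark bars) and for all 18857 genes tested (pale bars), in the 17 comparisons (y axis). Histone genes exceed the pale bars most in control at 4 h against 0 h (39 lower) and in control at 24 h against 12 h (22 higher), and lie below them in most comparisons with a cytokine. The pale bars are not matched to the histone genes by gene length or level.

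The test of a difference between times found the IL-1beta effect higher at 72 h than at 12 h for 4 of the 50 members, among them Hist1h1c, and lower for 0 (edgeR), where it was higher for 14.1% of all genes and differed either way for 28.2%. The TNF-alpha effect was lower at 72 h for 1 member, Hist1h2ai, and higher for 0, where it was lower for 4.9% of all genes, higher for 3.64% and different either way for 8.54%. Over the 8 comparisons of a cytokine with its control 25 of the 50 members were never called, against 26.2% of all genes tested. The shares of all genes set beside member counts are not matched to the members by gene length or level. Over all 17 comparisons 3 members were never called, against 16.4% of all genes: Hist1h1t, Hist1h2ae and Hist2h2be. Hist1h1d was called most often, in 9 comparisons. Both cytokines called Hist2h2ab at 4 h, Hist1h2af at 12 h, Hist1h3c at 24 h, and Hist1h1d, Hist1h3g and Hist2h2ac at 72 h, in comparisons that share their controls. The share of all genes called by both was not counted, so this list is not a result about histone genes as a set. The testis linker histone Hist1h1t passed the filter at 237 summed counts (mean 0.295 CPM), and the testis genes Hist1h2ba and Hist1h2aa were outside the rule with 1 and 3 counts.

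The 10 genes most like the summed histone level over the 27 libraries of 12, 24 and 72 h, by Pearson's r of log2 values, began with Commd1 (r = 0.963), which acts in endosomal sorting, Tmem50a (0.953), Washc3 (0.952) and Lamtor2 (0.951), and held Rn7sk (0.948). The points share their libraries and include every treatment, so r describes these libraries only. No gene of the S phase or mitosis lists was among the 10. Over all 38 libraries the summed histone level had r = 0.869 with the summed other RNAs without poly(A). With the summed genes listed as replication-independent variants r was 0.801, with S phase genes 0.077 and with mitosis genes 0.006. For the coding-size gene models alone these were 0.798, 0.781, 0.284 and 0.221. With genes of histone mRNA transcription and 3' processing r was -0.449 for all members. The reason for these values was not tested.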

How the data were processed

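Counts of reads per gene in a single table were deposited by the authors, and per the submitters' processing notes Trimmomatic, cutadapt, STAR and featureCounts were used with mm10, with no versions. The 2199 nameless lines at the end of the table (4.02% of lines), which stop short of the last 2 of the library columns, and 1 column, control 0 h replicate b (220180 counts), were left out. The test was edgeR's quasi-likelihood test (version 4.0.16, with limma 3.58.1 in R 4.3.3), with TMM scaling (0.864 to 1.12), filterByExpr and 1 coefficient per group in 1 fit of 38 libraries, and Benjamini-Hochberg adjustment over 18857 genes. The common biological coefficient of variation was 8.26%. No 2 replicates were copies (lowest chi-square per degree of freedom 3.39). CPM values are TMM-scaled. ± is the standard error.

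Members, gene lists and tests were chosen with earlier results of these data known. Named members were the 2 of highest mean CPM per class, up to 4 called per comparison and direction of largest change with mean CPM of at least 1, up to 3 called against the majority, those at the threshold, and those known to be polyadenylated or testis genes; other genes were the up to 3 of smallest p per list and comparison, and the 10 genes most like the summed level. Some further members, such as Hist1h2bf, Hist1h3g and Hist1h1e, were named after their values were seen. In data simulated for control 4 h against 0 h (18231 genes), 91% of 2-fold and 62.7% of 1.5-fold changes were recovered. For IL-1beta against control at 72 h (18213 genes) the shares were 95.5% and 71.6%. Changes were set in genes drawn from all those with mean CPM of at least 1, so these shares are not the recovery for the members. The median SE of the 50 tested members was 0.32 and 0.29 on the log2 scale in these comparisons. Alternatives were DESeq2 1.42.0, other scalings, no filter, a replicate block, only the libraries compared, all 39 libraries, each library left out, a threshold of 500 counts and, chosen after seeing the data, a gene length correction. Promoters come from RefSeq (GRCm38.p6). Figures were drawn with Python 3.11.15 and matplotlib 3.10.9.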

Additional observations from a re-analysis of the deposited data

Results flagged for a closer look

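The effect of IL-1beta differed between 72 and 12 h for 4 members by a test of the difference itself (edgeR interaction of treatment and time), where 14.1% of all genes had a higher effect at 72 h. On the log2 scale the effect at 72 h was higher by 1.04 ± 0.36 for Hist1h1b, by 0.72 ± 0.23 for Hist1h1d, by 0.62 ± 0.22 for Hist1h2bc and by 0.44 ± 0.11 for Hist1h1c (adjusted p = 0.0277, 0.0179, 0.0351 and 0.00145). The difference of Hist1h1c held when any 1 library was left out, and those of the other 3 did not: Hist1h1b was lost in 7, Hist1h1d in 4 and Hist1h2bc in 9 of 12 such fits. The count was 9 without IL-1beta 12 h replicate a, 2 without IL-1beta 12 h replicate b, control 72 h replicate a or control 72 h replicate c, and 1 without control 12 h replicate c or IL-1beta 12 h replicate c.

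The effect of TNF-alpha differed between 72 and 12 h for Hist1h2ai, by -1.58 ± 0.49 (edgeR adjusted p = 0.0380), where 4.9% of all genes had a lower effect at 72 h. It was -0.94 without TNF-alpha 12 h replicate c, and the call was lost in 6 of 12 such fits.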

How the results depend on the processing

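From 0 to 4 h 31 to 41 members were called under the alternatives run, except the fit without control 0 h replicate c. Leaving out 1 library gave 16 to 39 called there, 9 to 25 for control 24 against 12 h and 8 to 20 for 72 against 12 h. For IL-1beta against control it gave 3 to 12, 1 to 4, 0 to 4 and 8 to 14 at 4, 12, 24 and 72 h, and for TNF-alpha 1 to 3, 2 to 6, 0 to 5 and 2 to 5. For IL-1beta against TNF-alpha it gave 1 to 3, 0 to 2, 0 to 1 and 8 to 18, and for the effects at 72 minus 12 h 1 to 9 (IL-1beta) and 0 to 1 (TNF-alpha).

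Counts that moved by over 1.5 times were as follows, and the cause was not tested. With all 39 libraries: IL-1beta 4, 24 and 72 h 3, 0 and 8, TNF-alpha 24 and 72 h 0 and 1, IL-1beta against TNF-alpha 4 and 72 h 0 and 8, control 72 and 24 against 12 h 11 and 11, both effect differences 0. With no filter: IL-1beta 4, 12 and 24 h 18, 8 and 9, TNF-alpha 5, 10 and 9, IL-1beta against TNF-alpha 5, 4, 2 and 24, effect differences 11 and 2. With DESeq2: IL-1beta 12 and 24 h 6 and 0. With library totals: IL-1beta 4 h 10, TNF-alpha 72 h 3, its effect difference 0. With only the libraries compared: IL-1beta 24 h 5, TNF-alpha 4 and 24 h 4 and 9, IL-1beta against TNF-alpha 24 h 1, TNF-alpha effect difference 0. With the length correction, chosen after seeing the data: IL-1beta 4 and 24 h 10 and 0, TNF-alpha 12 h 6, IL-1beta against TNF-alpha 24 h 1. Without Hist1h1c the summed ratio of 4 to 0 h was 0.496. TNF-alpha at 4 h against control at 12 h, on the same side of the line between libraries, gave 3 called. No named change reversed in the alternatives run.

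The replicate letters did not pair samples (same-letter deviations correlated at a median of -0.003, with 6 of 222 pairs over 0.1, and 9 of 38 libraries best with their own letter). With the replicate block 39 members were called from 0 to 4 h, and no count moved by over 1.5 times. With library totals alone the median log2 change of all genes was -0.13 for IL-1beta at 4 h, 0.14 for control 24 against 12 h, 0.10 for TNF-alpha at 72 h and -0.11 for IL-1beta against TNF-alpha at 72 h. For the 14 members under 1 CPM few reads limit single calls.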
